A study of Mus musculus with 4 samples.

Results

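The genes described here are 10 chemokine ligands: *Cxcl1*, *Cxcl2*, *Cxcl9*, *Cxcl10*, *Cxcl12*, *Cxcl16*, *Ccl2*, *Ccl5*, *Ccl7* and *Cx3cl1*. They were taken by gene symbol from a table of 18373 genes, all 10 were found, and all 10 were among the 13628 genes that passed the filter on low counts and were tested. The RNA came from primary liver sinusoidal endothelial cells (LSEC), the fenestrated endothelium that lines the liver sinusoids, isolated from 8-week-old Balb/c mice and sequenced at day 3. After 24 h of culture, 2 libraries were made from cells given a control siRNA (NC) and 2 from cells given siRNA against the long non-coding RNA *Airn* (si*Airn*), each for 48 h. All 4 cultures shared the strain, isolation by collagenase perfusion, a density gradient and anti-CD146 magnetic beads, and the collagen-coated plates. The study used separate siRNAs against *Airn*, both si*Airn* titles name siAirn1, and which siRNA each library received was not settled here. The labels call the libraries biological replicates but do not name the animals or pools behind them, so the p-values measure the spread between these libraries only.

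Chemokines are small secreted proteins that steer leukocytes by binding G protein-coupled receptors on them, and their families are named by the spacing of the first cysteines (CXC, CC and CX3C). In the liver sinusoid they are held on the heparan sulfate of the endothelial surface and presented to passing blood cells. Neutrophils follow *Cxcl1* and *Cxcl2* through CXCR2, monocytes follow *Ccl2* and *Ccl7* through CCR2, and activated T and NK cells follow the interferon-induced *Cxcl9* and *Cxcl10* through CXCR3. *Cxcl12* is the homeostatic ligand of CXCR4, and *Cxcl16* and *Cx3cl1* are made as membrane-bound proteins that proteases can release.

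The upstream sequences of 5 members are shown because these genes are known as targets of different transcription factors. The table of RefSeq upstream sequences used here (GRCm38.p6) held 6 of the 10 members (*Cxcl1*, *Cxcl2*, *Cxcl9*, *Cxcl10*, *Cxcl12* and *Cx3cl1*), and the 250 bases before each gene's start were searched on both strands for the letters GGGNNNNNCC (kB-like, after the sites that NF-kappaB binds) and GAAANNGAAA (ISRE-like, after the interferon-stimulated response element). Capitals mark every base of a match, and kB-like matches that lie 1 base apart overlap. The last 120 bases before the start are shown for the neutrophil ligands *Cxcl1* (plus strand, chr5:90891125-90891244) and *Cxcl2* (plus strand, chr5:90903779-90903898) and for *Cxcl12* (plus strand, chr6:117168415-117168534).
Cxcl1: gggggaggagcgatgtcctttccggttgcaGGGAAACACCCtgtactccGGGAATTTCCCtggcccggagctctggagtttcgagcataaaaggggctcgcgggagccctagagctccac
Cxcl2: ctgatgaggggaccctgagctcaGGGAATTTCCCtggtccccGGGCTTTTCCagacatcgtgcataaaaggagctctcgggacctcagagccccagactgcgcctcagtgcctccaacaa
Cxcl12: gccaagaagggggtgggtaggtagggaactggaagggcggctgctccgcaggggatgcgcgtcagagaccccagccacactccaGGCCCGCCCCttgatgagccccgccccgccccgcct
All 250 bases are shown for the CXCR3 ligands *Cxcl9* (minus strand, chr5:92328080-92328329) and *Cxcl10* (minus strand, chr5:92348890-92349139).
Cxcl9: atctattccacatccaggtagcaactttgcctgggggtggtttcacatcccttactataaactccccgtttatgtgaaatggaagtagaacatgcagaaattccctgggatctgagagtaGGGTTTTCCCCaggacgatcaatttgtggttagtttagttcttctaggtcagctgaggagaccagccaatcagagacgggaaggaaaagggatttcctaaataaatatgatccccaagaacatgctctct
Cxcl10: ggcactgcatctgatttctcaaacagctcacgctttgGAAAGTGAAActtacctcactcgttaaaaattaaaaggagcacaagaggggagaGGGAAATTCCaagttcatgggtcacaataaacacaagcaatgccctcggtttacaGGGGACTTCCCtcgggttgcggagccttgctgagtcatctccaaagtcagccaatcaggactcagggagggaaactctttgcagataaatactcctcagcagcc

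*Cxcl1* and *Cxcl2* shared a run of 14 bases, gggaatttccctgg, which began 71 bases before the start of *Cxcl1* and 97 bases before that of *Cxcl2* and was present in 2 of the 32851 upstream windows of the same length. There were 4 kB-like matches in *Cxcl1*, 3 in *Cxcl2*, 3 in *Cxcl10*, 2 in *Cxcl9*, 1 in *Cxcl12* and 0 in *Cx3cl1*, and 45.8% of all windows held at least 1. The ISRE-like letters, present in 2.98% of all windows, were found in *Cxcl10* alone of the 6, 213 bases before its start. These matches describe the letters only.

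The libraries held between 17308382 and 18371959 counts. *Airn* itself had 7 and 3 counts in NC against 11 and 9 counts in the libraries labelled si*Airn*. That is too few to be tested and no decrease, so the groups below are named by their labels alone. All 9 LSEC markers and all 8 pan-endothelial markers were detected in every library, with summed levels of 3681 to 3699 CPM (counts scaled to library size) in NC against 2353 to 2599 CPM in si*Airn* for LSEC, and 9291 to 9737 CPM against 6130 to 6967 CPM for the pan-endothelial list. Of these, 8 of 9 LSEC markers and 6 of 8 pan-endothelial markers were lower in si*Airn* at an adjusted p under 0.05, with medians of -0.58 and -0.55 on the log2 scale. Over all genes tested, 8.56% were lower at that threshold. In bulk RNA, fewer cells of a type and less RNA per cell cannot be told apart, and this holds for every marker list and ligand below.

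Per length of transcript, *Ccl2* was the most abundant member in every library. Its FPKM (reads scaled to transcript length and library size, the scale used here to order the genes by level) averaged 981 over the 4 libraries, rank 81 of 18373 genes. *Cxcl12* followed with a mean of 355 FPKM, then *Cxcl1* with 220, *Ccl7* with 170, *Cxcl16* with 111, *Cxcl10* with 63.2, *Ccl5* with 48.5, *Cxcl2* with 23.1, *Cxcl9* with 2.01 and *Cx3cl1* with 1.38 FPKM. Neighbours in this order were not always apart: *Cxcl1* (152 to 314 FPKM) and *Ccl7* (122 to 217 FPKM) overlapped over the libraries, as did *Ccl7* and *Cxcl16* (92.6 to 128 FPKM), *Cxcl10* (53.6 to 77.5 FPKM) and *Ccl5* (38.9 to 56.5 FPKM), and *Cxcl9* (1.29 to 2.84 FPKM) and *Cx3cl1* (1.21 to 1.88 FPKM). *Cxcl1* and *Cxcl12* (275 to 470 FPKM) also overlapped.

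The sum over the 10 ligands was 1883 and 2122 FPKM in NC and 1764 and 2133 FPKM in si*Airn*, so the groups overlapped. What it was made of differed between the labelled groups. *Ccl2* made up 56.6% and 53.0% of the sum in NC and 48.2% and 41.5% in si*Airn*. *Cxcl12* made up 14.6% and 14.7% in NC and 20.4% and 22.0% in si*Airn*. The ratio of *Cxcl12* to *Ccl2* FPKM was 0.258 and 0.278 in NC and 0.424 and 0.532 in si*Airn*. With 2 libraries against 2, no exact permutation test of such a ratio can reach p under 0.05, so these shares and ratios are descriptions.

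**Figure D1:**
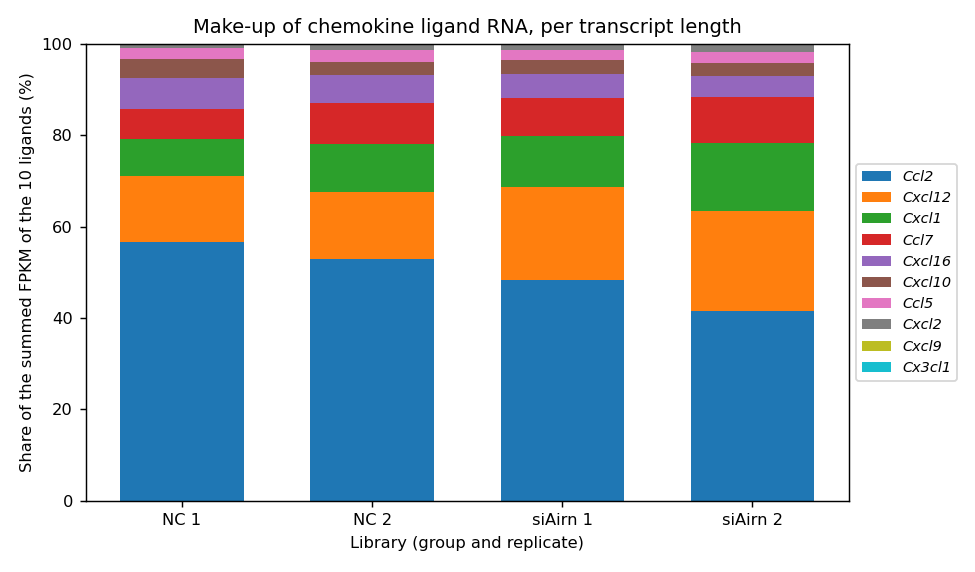
Share of the summed FPKM of the 10 chemokine ligands (y axis, percent) in each of the 4 libraries (x axis), 1 stacked bar per library. *Ccl2* fills 53.0% and 56.6% of the NC bars and 41.5% and 48.2% of the si*Airn* bars, and *Cxcl12* goes from 14.6% and 14.7% to 20.4% and 22.0%.

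The comparison of si*Airn* with NC asked which ligands differ after siRNA against *Airn*. At an adjusted p under 0.05 (quasi-likelihood test of edgeR, Benjamini-Hochberg over all genes tested), 4 of the 10 ligands differed: *Cxcl12* was higher in si*Airn*, and *Cxcl9*, *Cxcl16* and *Ccl2* were lower. Over all 13628 genes tested 16.8% were called, 8.27% as higher and 8.56% as lower. The NC and si*Airn* libraries did not overlap for 5 of the 10 ligands, the 4 named and *Cxcl10*, against 62.7% of all genes tested, so this count is not above the background. The study's own threshold is a fold change over 1.4 with an unadjusted p under 0.05. Applied to the values of edgeR's quasi-likelihood test, it was passed by 3 ligands (*Cxcl12*, *Cxcl16* and *Cxcl9*) and by 9.96% of all genes. The median log2 difference over the 10 ligands was -0.02, beside 0.00 over all genes tested, and 5 ligands lay on each side of 0.

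These counts rested on both NC libraries. Without NC replicate 1, 0 of the 10 ligands were called by edgeR's quasi-likelihood test (3 at an unadjusted p under 0.05), and 40 of all genes. Without NC replicate 2, 0 of the 10 ligands were called (6 at an unadjusted p under 0.05) and 0 of all genes, of which 3106 were at an unadjusted p under 0.05. With 1 NC library left, that library is assumed to vary like the si*Airn* libraries. Leaving out si*Airn* replicate 1 gave 6 called ligands beside 2410 of 13906 genes, and leaving out si*Airn* replicate 2 gave 3 beside 1446 of 13910 genes.

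**Figure D2:**
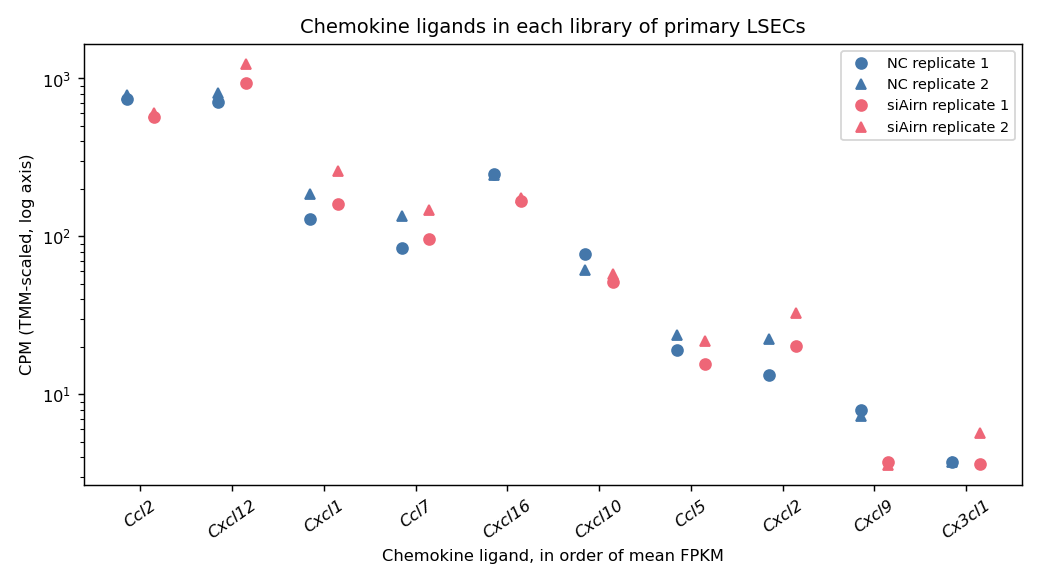
TMM-scaled CPM (y axis, log scale) of each ligand (x axis, in order of mean FPKM), with 1 point per library (blue, NC; red, si*Airn*; circles, replicate 1; triangles, replicate 2). The points of *Cxcl9*, *Cxcl10*, *Cxcl12*, *Cxcl16* and *Ccl2* do not overlap between the groups, while those of the other 5 ligands do.

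**Figure D3:**
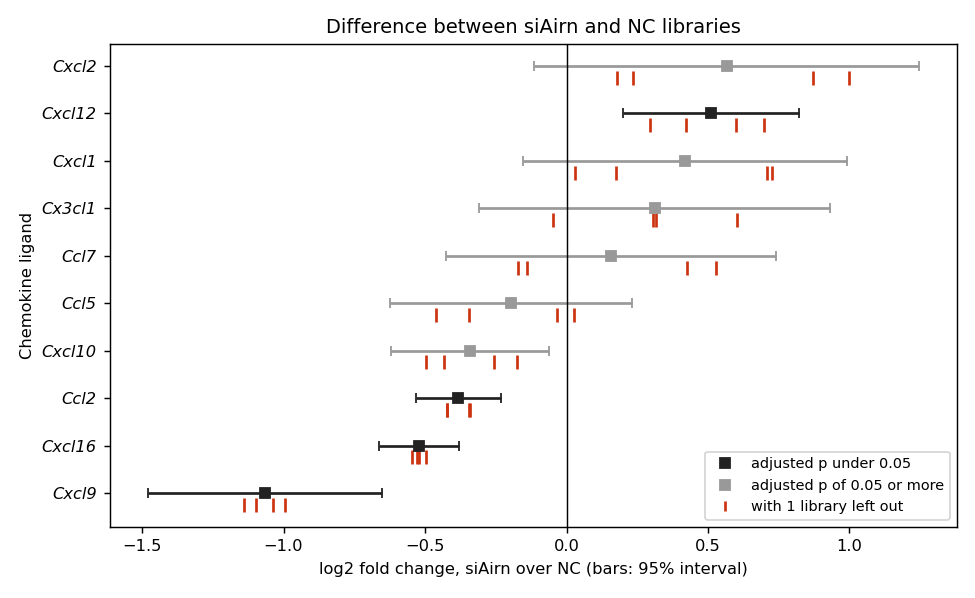
Log2 fold change of si*Airn* over NC (x axis) for the 10 ligands (y axis), with 95% intervals from edgeR's quasi-likelihood test, black for an adjusted p under 0.05 and grey otherwise, and red ticks for the value with 1 library left out. The intervals of *Cxcl12*, *Cxcl9*, *Cxcl16*, *Ccl2* and *Cxcl10* lie to 1 side of 0, and that of *Cxcl10* was not called after adjustment.

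*Cxcl12*, the CXCR4 ligand that retains stem cells and lymphocytes in tissues, was the only one of the 10 ligands called as higher in si*Airn*. Its level was 714 and 808 CPM in the NC libraries and 934 and 1234 CPM in the si*Airn* libraries. Both si*Airn* libraries were above both NC libraries, and the si*Airn* libraries lay farther from each other (1.32-fold) than the NC libraries did (1.13-fold). The log2 fold change was 0.51 (SE 0.13, 95% interval 0.20 to 0.82, n = 2 per group), 1.42-fold, with an adjusted p of 0.0405 (edgeR's quasi-likelihood test). This call was lost without NC replicate 1 (log2 fold change 0.42, adjusted p 0.212), without NC replicate 2 (0.60, adjusted p 0.147) and without si*Airn* replicate 2 (0.30, adjusted p 0.0650), and the value changed by over 1.5 times in the last of these. Without si*Airn* replicate 1 the log2 fold change was 0.70 (adjusted p 0.000535). With all 4 libraries the call was lost with limma on log2(FPKM + 1) and log2(FPKM + 0.1) (adjusted p 0.0590 and 0.0595) and when GC content and length were corrected for (0.42, adjusted p 0.0873).

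Stellate cells and fibroblasts are mesenchymal neighbours of LSEC that also make *Cxcl12*. All 10 of their markers were detected and had a positive log2 fold change, with a median of 0.42. Of the 10, 4 (40.0%) were called as higher (*Acta2*, *Col3a1*, *Lum* and *Reln*), against 8.27% of all genes tested, and the others did not pass the test. At an unadjusted p under 0.05 in the same test there were 8. DESeq2 called 6 of these markers and limma on log2(FPKM + 1) called 4. The summed level was 1122 to 1322 CPM in NC and 1375 to 1790 CPM in si*Airn*. *Acta2*, smooth muscle actin, was 286 and 305 CPM in NC and 355 and 389 CPM in si*Airn*, while *Dcn*, a matrix proteoglycan, was 257 and 377 CPM in NC and 313 and 473 CPM in si*Airn*. The ratio of *Cxcl12* to the summed marker CPM was 0.637 and 0.611 in NC and 0.679 and 0.690 in si*Airn*, with groups that did not overlap. No marker of this list was at 0 in any library. Hepatocyte markers had summed levels of 513 and 665 CPM in NC against 731 and 947 CPM in si*Airn*. Most of each sum was *Alb*, with 497 and 638 CPM in NC and 705 and 900 CPM in si*Airn*. *Alb* itself was not called (adjusted p 0.0598, edgeR's quasi-likelihood test). The median log2 fold change of the 7 hepatocyte markers tested was 0.39, with 6 above 0 and 1 below. Of the 7 tested, 1 (14.3%) was called as higher (*Apoa1*), against 8.27% of all genes tested (16.8% in either direction). The part of these cells in the *Cxcl12* difference was not tested.

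The CXCL12 receptors did not pass the test. *Cxcr4* was 53.9 and 47.3 CPM in NC and 51.1 and 42.2 CPM in si*Airn* (log2 fold change -0.12, 95% interval -0.38 to 0.15, adjusted p 0.507), with overlapping groups. *Ackr3*, an atypical receptor that takes up CXCL12, was at 5.19 and 4.64 CPM in NC and 5.70 and 3.67 CPM in si*Airn*. Of the 4 genes listed for their regulation of *Cxcl12* (*Hif1a*, *Cebpb*, *Runx1* and *Vegfa*), 1 (25.0%) was called, against 16.8% of all genes tested. It was *Vegfa*, the endothelial growth factor, with 62.4 and 60.9 CPM in NC and 74.9 and 74.5 CPM in si*Airn* (log2 fold change 0.28, SE 0.06, adjusted p 0.0291). That call was lost with DESeq2 (adjusted p 0.0628) and in each fit that left out 1 library (adjusted p 0.0727 to 0.167). *Hif1a*, the hypoxia-inducible factor, was 297 and 328 CPM in NC and 332 and 359 CPM in si*Airn* (adjusted p 0.217).

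Among the CXCR3 ligands, *Cxcl9* fell and had the largest difference of the 10 ligands. It was counted 137 and 131 times in the NC libraries and 67 and 63 times in the si*Airn* libraries, which is 8.00 and 7.24 CPM against 3.71 and 3.56 CPM. The groups did not overlap, and libraries of 1 group differed by at most 1.10-fold. The log2 fold change was -1.07 (SE 0.17, 95% interval -1.48 to -0.65, n = 2 per group), 2.09-fold lower in si*Airn*, with an adjusted p of 0.0129 (edgeR's quasi-likelihood test). The call was lost without NC replicate 1 (-0.996, adjusted p 0.0934) and without NC replicate 2 (-1.14, adjusted p 0.107). On the log2(FPKM + 1) scale, which understates changes of low genes, limma gave -0.67 with the call kept.

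*Cxcl10*, the other interferon-induced CXCR3 ligand, was 77.1 and 61.6 CPM in NC and 51.3 and 58.1 CPM in si*Airn*. The groups did not overlap, but the lower NC library and the higher si*Airn* library were close. Its log2 fold change of -0.34 (SE 0.12, 95% interval -0.62 to -0.06) did not pass the test (adjusted p 0.0902), and it was -0.18 when NC replicate 1 was left out and -0.50 when NC replicate 2 was. The ratio of *Cxcl10* to *Cxcl9* FPKM was 27.3 and 24.2 in NC and 39.4 and 46.3 in si*Airn*, higher in both si*Airn* libraries. Exons of *Art3* on the opposite strand cover 5.91% of the exonic bases of *Cxcl10* (GENCODE M21), and the strand setting of the counting is not given in the sources used here. *Art3* was 19.4 and 21.9 CPM in NC and 17.6 and 17.7 CPM in si*Airn*.

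Of 14 genes of interferon signalling that act upstream of the CXCR3 ligands, 3 (21.4%) were called, all as lower, a share near the 16.8% of all genes tested, and the median log2 fold change was -0.08. *Irf7*, a transcription factor of the type I interferon response, was 1044 and 1021 CPM in NC and 654 and 636 CPM in si*Airn* (-0.68, SE 0.06, adjusted p 0.00496). The other calls were *Irf8*, a factor of myeloid and B cells (-0.56, adjusted p 0.0137), and *Jak1*, a kinase of the interferon receptors (-0.25, adjusted p 0.0333), which limma on log2(FPKM + 1) put at -0.15 with no call (adjusted p 0.143). *Irf1*, a transcription factor induced by interferon-gamma, did not pass the test, with 71.1 and 63.8 CPM in NC and 65.7 and 64.0 CPM in si*Airn* (-0.06, 95% interval -0.24 to 0.12).

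Among the CC ligands, *Ccl2*, the main attractant of inflammatory monocytes, fell. Its level was 742 and 782 CPM in NC and 568 and 602 CPM in si*Airn*. The groups did not overlap, and libraries of 1 group differed by 1.05-fold in NC and 1.06-fold in si*Airn*. The log2 fold change was -0.38 (SE 0.06, 95% interval -0.53 to -0.23, n = 2 per group), 1.30-fold lower, with an adjusted p of 0.0134 (edgeR's quasi-likelihood test). The call was lost without NC replicate 1 (-0.42, adjusted p 0.0752) and without NC replicate 2 (-0.35, adjusted p 0.118).

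*Ccl7*, the other CCR2 ligand of the list, was not called, and whether its change differs from that of *Ccl2* was not tested. It was 84.2 and 134 CPM in NC and 96.9 and 147 CPM in si*Airn*, so that replicate 2 exceeded replicate 1 in both groups, by 1.59-fold in NC and 1.51-fold in si*Airn*. The log2 fold change of 0.16 (95% interval -0.42 to 0.74) did not pass the test (adjusted p 0.689). Leaving out NC replicate 1 gave -0.14, and leaving out si*Airn* replicate 2 gave -0.17. The ratio of *Ccl7* to *Ccl2* FPKM was 0.114 and 0.172 in NC and 0.172 and 0.245 in si*Airn*. *Ccl5*, which draws T cells and monocytes, was 19.0 and 23.6 CPM in NC and 15.5 and 21.8 CPM in si*Airn*, with overlapping groups (-0.20, 95% interval -0.62 to 0.23, adjusted p 0.481). Without si*Airn* replicate 1 its log2 fold change was 0.03, and with the correction for GC content and length it was -0.015.

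All 14 tested markers of macrophages and Kupffer cells (of 15 listed), the resident phagocytes of the sinusoid, had a negative log2 fold change, with a median of -0.74. Of these, 9 (64.3%) were called as lower, against 8.56% of all genes tested, and 0 as higher. DESeq2 called 7 of these markers and limma on log2(FPKM + 1) called 5. Their summed level was 316 to 388 CPM in NC and 204 to 245 CPM in si*Airn*. *Clec4f*, which defines Kupffer cells, was 4.84 and 4.20 CPM in NC and 1.94 and 1.41 CPM in si*Airn*. The Kupffer cell marker *Timd4* was at 0 in NC replicate 2 and si*Airn* replicate 2 and had at most 3 counts in the others. The ratio of *Ccl2* to the summed macrophage marker CPM was 2.34 and 2.02 in NC and 2.32 and 2.95 in si*Airn*, that of *Cxcl16* was 0.780 and 0.632 against 0.686 and 0.853, and that of *Cxcl9* was 0.0253 and 0.0187 against 0.0151 and 0.0174. Only the ratio of *Cxcl9* had groups that did not overlap. The LSEC and pan-endothelial lists given above were lower in si*Airn* too. The part of macrophages or of endothelial cells in the lower *Cxcl9*, *Cxcl16* and *Ccl2* was not tested.

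**Figure D4:**
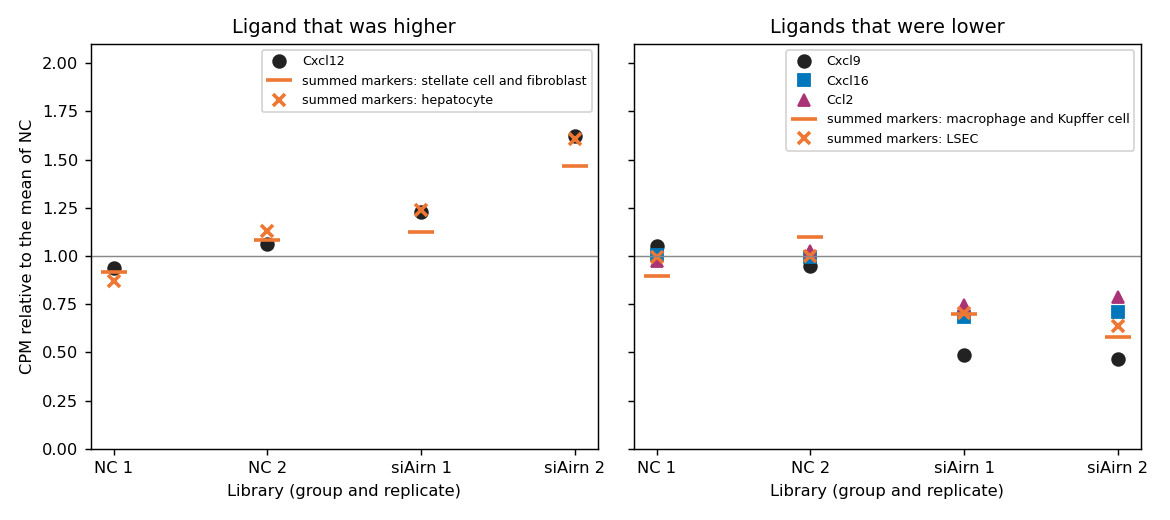
CPM relative to the mean of the NC libraries (y axis) in each library (x axis), for *Cxcl12* with the summed stellate cell and hepatocyte markers (left) and for *Cxcl9*, *Cxcl16* and *Ccl2* with the summed macrophage and LSEC markers (right). The hepatocyte sum is mostly *Alb*. Before this scaling the summed stellate level spans 1122 to 1322 CPM in NC and 1375 to 1790 CPM in si*Airn*, and the summed macrophage level 316 to 388 CPM in NC and 204 to 245 CPM in si*Airn*, so that both the ligands and the lists separate the groups.

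The neutrophil ligands *Cxcl1* and *Cxcl2* varied more between libraries of a group than the ligands that were called. *Cxcl1* was 129 and 186 CPM in NC and 160 and 260 CPM in si*Airn*, and *Cxcl2* was 13.2 and 22.4 CPM in NC and 20.2 and 32.7 CPM in si*Airn*. In both genes replicate 2 was the higher library of each group, and the groups overlapped. Log2 fold changes were 0.42 for *Cxcl1* (SE 0.24, 95% interval -0.15 to 0.99, adjusted p 0.269) and 0.57 for *Cxcl2* (SE 0.29, 95% interval -0.11 to 1.25, adjusted p 0.214), and neither passed the test. With a replicate block in the fit both were called (adjusted p 0.000227 and 0.000594), though no label shows that the numbers pair the libraries. Without si*Airn* replicate 1 both were called as higher, *Cxcl1* at 0.73 (adjusted p 0.00785) and *Cxcl2* at 0.87 (adjusted p 0.0158). The values were much smaller and not called without si*Airn* replicate 2 (0.028 for *Cxcl1* and 0.18 for *Cxcl2*) and without NC replicate 1 (0.18 and 0.24), and they were 0.71 and 0.997, also not called, without NC replicate 2.

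The ratio of *Cxcl1* to *Cxcl2* FPKM was 11.2 and 9.54 in NC against 9.14 and 9.17 in si*Airn*, and both genes had the same order of the 4 libraries. Of the 50-base windows of *Cxcl2*, 5.84% are shared with other genes, most with *Cxcl3*, and reads from these windows could be divided between the genes. *Cxcl3*, the neighbouring CXCR2 ligand, was 16.9 and 22.3 CPM in NC and 19.3 and 30.2 CPM in si*Airn* (0.33, adjusted p 0.335). *Cxcl5*, a CXCR2 ligand of epithelial and stromal cells, was 18.6 and 30.0 CPM in NC and 24.1 and 41.9 CPM in si*Airn* (0.44, adjusted p 0.337). Replicate 2 was the higher library of each group in these genes as well. Without si*Airn* replicate 1 the log2 fold change was 0.62 for *Cxcl3* and 0.78 for *Cxcl5*. Leaving out si*Airn* replicate 2 instead gave -0.026 for *Cxcl3* and -0.018 for *Cxcl5*. Markers of neutrophils and monocytes were low: 4 of 8 were tested, 0 were called by edgeR's quasi-likelihood test (0 at an unadjusted p under 0.05, and 0 with DESeq2), their summed level was 10.6 to 11.2 CPM in NC and 8.31 to 12.7 CPM in si*Airn*, and *Mpo* was at 0 in all 4 libraries.

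Of 18 genes of NF-kappaB and cytokine signalling that act upstream of the inflammatory chemokines, 4 (22.2%) were called, a share near the 16.8% of all genes tested, and the median log2 fold change was 0.07. Of these, 3 were higher in si*Airn*: *Rel*, a subunit of NF-kappaB, with 14.4 and 14.6 CPM in NC and 19.3 and 20.7 CPM in si*Airn* (0.46, adjusted p 0.0269), *Nfkbiz*, which encodes the nuclear regulator IkappaB-zeta (0.44, adjusted p 0.0465), and *Tnfaip3*, which encodes the NF-kappaB inhibitor A20 (0.33, adjusted p 0.0295). With the correction for GC content and length *Rel* was 0.20 (adjusted p 0.240) and *Tnfaip3* 0.16 (adjusted p 0.194), and *Nfkbiz* lost its call in 5 of the 10 alternatives that kept all libraries. Without si*Airn* replicate 2 the value of *Nfkbiz* was 0.26 and its call was lost (adjusted p 0.118). *Tlr2*, a receptor for bacterial lipoproteins, was lower (-0.44, adjusted p 0.0229). DESeq2 called 2 of these 4 genes, without *Rel* (adjusted p 0.0724) and *Tlr2* (adjusted p 0.0520). The cytokine *Il6* had 120 and 195 counts in NC against 168 and 257 counts in si*Airn* and did not pass the test (adjusted p 0.315).

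Of the membrane-bound ligands, *Cxcl16*, the CXCR6 ligand that also acts as a scavenger receptor for oxidized lipoprotein, fell. Its level was 247 and 245 CPM in NC and 168 and 174 CPM in si*Airn*. The groups did not overlap, and libraries of 1 group differed by 1.01-fold in NC and 1.04-fold in si*Airn*. In si*Airn* the log2 fold change was -0.52 (SE 0.06, 95% interval -0.66 to -0.38, n = 2 per group), 1.44-fold lower, with an adjusted p of 0.00625 (edgeR's quasi-likelihood test), the lowest of the 10 ligands. The call was lost without NC replicate 1 (-0.52, adjusted p 0.0688) and without NC replicate 2 (-0.53, adjusted p 0.0883). Exons of *Zmynd15* on the opposite strand cover 18.3% of the *Cxcl16* exons (GENCODE M21), and its estimated counts are not whole numbers. *Zmynd15* was 34.1 and 35.9 CPM in NC and 22.9 and 20.6 CPM in si*Airn*, and its part in the *Cxcl16* values was not tested.

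*Cx3cl1*, the endothelial ligand of CX3CR1, had the lowest mean FPKM of the 10 over the 4 libraries, although *Cxcl9* was below it in si*Airn* replicate 2. It had 64 and 67 counts in NC and 65 and 100 counts in si*Airn*, or 3.73 and 3.70 CPM against 3.60 and 5.65 CPM. Only si*Airn* replicate 2 stood above the others, and the groups overlapped (0.31, 95% interval -0.31 to 0.93, adjusted p 0.440). Without that library the log2 fold change was -0.05.

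Of 7 proteases listed for releasing or trimming these ligands, 4 (57.1%) were called, 3 as lower, and the median log2 fold change was -0.18. Over all genes tested 16.8% were called, 8.56% as lower. *Adam10*, which releases CXCL16 and CX3CL1 from the membrane, was 134 and 135 CPM in NC and 99.2 and 91.1 CPM in si*Airn* (-0.50, SE 0.07, adjusted p 0.00854). *Adam17*, which releases CX3CL1 after stimulation, was 64.8 and 63.3 CPM in NC and 69.8 and 68.3 CPM in si*Airn* and did not pass the test (0.11, 95% interval -0.04 to 0.26). *Dpp4*, which trims the ends of CXCL12, CXCL9 and CXCL10, was 62.9 and 61.7 CPM in NC and 45.0 and 43.6 CPM in si*Airn* (-0.49, adjusted p 0.00878). *Mmp12*, the macrophage elastase, was 73.9 and 129 CPM in NC and 52.9 and 55.5 CPM in si*Airn* (-0.90, adjusted p 0.0390), and without NC replicate 2 its log2 fold change was -0.45 and the call was lost (adjusted p 0.105), as it was with DESeq2 (adjusted p 0.0997) and limma (0.0700 and 0.0704). *Mmp2*, a gelatinase that can cleave CXCL12, was the only one called as higher (0.56, adjusted p 0.0216).

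The atypical receptors, which bind chemokines without G protein signalling, had a median log2 fold change of -0.69 over 4 genes. Of these, 1 (25.0%) was called, against 16.8% of all genes tested. *Ackr1*, which binds many inflammatory CC and CXC ligands on venular endothelium, was 68.6 and 103 CPM in NC and 36.7 and 49.3 CPM in si*Airn* (-0.996, SE 0.21, adjusted p 0.0230). Its groups did not overlap. Exons of *Cadm3* cover 25.7% of its exons in GENCODE M21, so its reads could be divided with that gene. *Ackr2*, a scavenger of inflammatory CC ligands, was 23.7 and 22.8 CPM in NC and 20.6 and 14.9 CPM in si*Airn* and did not pass the test (-0.39, adjusted p 0.130). It was -0.17 without si*Airn* replicate 2, and it was called at -0.64 (adjusted p 0.00807) when si*Airn* replicate 1 was left out.

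Of 12 genes for the heparan sulfate that holds chemokines on the endothelial surface, 3 (25.0%) were called, against 16.8% of all genes tested, and the median log2 fold change was 0.07. *Hs6st1*, which adds 6-O-sulfate, was 128 and 122 CPM in NC and 86.1 and 73.4 CPM in si*Airn* (-0.65, adjusted p 0.00853). *Ext2*, a subunit of the polymerase that extends the chain, was lower (-0.29, adjusted p 0.0262), and *Glce*, the epimerase of the chain's glucuronic acid, was higher (0.40, adjusted p 0.0246). The correction for GC content and length ended both of these calls, with *Glce* at 0.26 (adjusted p 0.0971) and *Ext2* at -0.23 (adjusted p 0.0606).

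Other chemokine ligands and the chemokine receptors outside the atypical list gave 0 calls by edgeR's quasi-likelihood test, and 0 with DESeq2 or limma. At an unadjusted p under 0.05 there were 1 ligand (*Ccl6*) and 0 receptors. Of 31 other ligands, 24 were in the table, 14 were tested, and the median log2 fold change was -0.07. Those at 5 CPM or more, beside *Cxcl3* and *Cxcl5*, were *Ccl3* (-0.69, adjusted p 0.317), *Ccl6* (-0.63, adjusted p 0.134), *Ccl9* (-0.51, adjusted p 0.190), *Ccl25* (-0.20, adjusted p 0.473, and -0.11 without NC replicate 2), *Cxcl14* (0.16, adjusted p 0.604) and *Pf4* (0.10, adjusted p 0.779). *Ccl6*, a myeloid CCR1 ligand, was 62.9 and 119 CPM in NC and 57.6 and 59.8 CPM in si*Airn*, so that NC replicate 2 stood above the other 3 libraries. Without NC replicate 1 it was called as lower (-1.02, adjusted p 0.0374), while without NC replicate 2 it was -0.10 (adjusted p 0.522) and *Ccl9* was -0.034 (adjusted p 0.899). *Ccl3*, a ligand made by macrophages, was called as lower without si*Airn* replicate 2 (-1.36, adjusted p 0.0395) and was 0.016 without NC replicate 2. Of 19 receptors, 18 were in the table and 6 were tested, with a median of -0.11, and *Ccr6* and *Ccr8* were at 0 in all 4 libraries. *Ccrl2*, a receptor that does not signal, was 15.6 and 19.1 CPM in NC and 14.4 and 20.5 CPM in si*Airn*, and its log2 fold change of 0.00 (95% interval -0.43 to 0.44) took either sign with the scaling. *Cxcr3*, the receptor for CXCL9 and CXCL10, had 4 to 8 counts and was not tested.

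Over the lists of other chemokine genes and their regulators, 16 named genes were called with all 4 libraries. Of these, 1 remained without NC replicate 1 (*Mmp12*), 0 without NC replicate 2, 14 when si*Airn* replicate 1 was left out and 10 when si*Airn* replicate 2 was. The remaining marker lists were low. T and NK cell markers were at 7.79 to 8.05 CPM in NC and 7.74 to 8.13 CPM in si*Airn*, with 0 of 3 tested called by edgeR's quasi-likelihood test (1 at an unadjusted p under 0.05, *Cd3e*, and 1 with limma). Those of B cells, cholangiocytes and mesothelial cells were at most 23.8 CPM in sum, with 0 of 2, 0 of 4 and 0 of 4 tested called, 1 of each list at an unadjusted p under 0.05 and 0 with DESeq2 or limma.

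**Figure D5:**
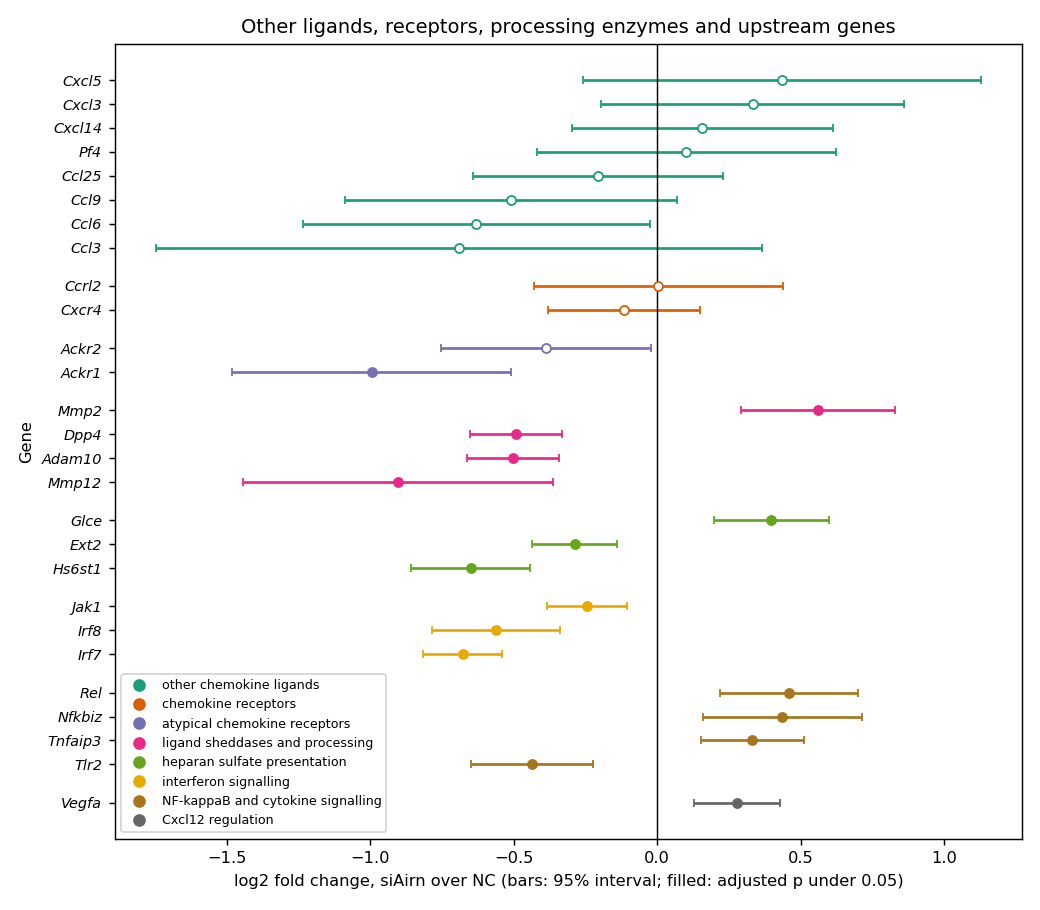
Log2 fold change of si*Airn* over NC (x axis) for the named genes of the ligand, receptor, protease, heparan sulfate and signalling lists (y axis), with 95% intervals from edgeR's quasi-likelihood test, coloured by list, and filled where the adjusted p is under 0.05. *Ackr1* at -0.996 and *Mmp12* at -0.90 are the lowest called values among the genes plotted, which leave out the 10 ligands, and *Mmp2* at 0.56 is the highest.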

How the data were processed

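RNA-seq of primary LSEC was analysed in 4 libraries, grouped by their labels into 2 NC and 2 si*Airn*. Per the labels, reads were single-end and 50 bases long (BGISEQ-500). The submitters' processing notes name BWA, Bowtie2 and RSEM, and hg19, a human build, for these mouse samples. The annotation, the filters and the use of strand are not given in the sources used here. The authors deposited 1 table of genes. It holds estimated counts, which the authors did not normalize (76.5% to 76.8% are whole numbers), and values read here as FPKM computed by the authors, since they scale with count, length and library total. The deposited group means were not used.

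Estimated counts were rounded to whole numbers. The test was edgeR 4.0.16 under R 4.3.3 (TMM with factors from 0.985 to 1.02, filterByExpr, glmQLFit and glmQLFTest, no covariate). P-values are two-sided, were adjusted by Benjamini-Hochberg over 13628 genes, and a call is an adjusted p under 0.05. Standard errors are those implied by the F statistic. CPM values are TMM-scaled. Before that scaling, 3 counts are 0.163 to 0.173 CPM. Intervals come from the fit.

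The alternatives were DESeq2 1.42.0, upper-quartile normalization, no filter, a minimum of 10 counts per library, the likelihood-ratio test of edgeR, limma 3.58.1 on log2(FPKM + 1) and log2(FPKM + 0.1) where the mean FPKM reached 1, a replicate block, a correction for GC content and length (splines with 5 degrees of freedom per library, 12905 genes, 94.7% of those tested) with and without the block, and leaving out each library. The study's threshold was also applied, to the fold changes and unadjusted p-values of edgeR's quasi-likelihood test.

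The members and all lists were chosen with earlier results of these data known. Named genes are the 10 members, *Airn*, every listed gene with an adjusted p under 0.05, and other chemokine ligands and receptors with a mean of at least 5 CPM. *Ackr3*, *Irf1*, *Il6*, *Hif1a*, *Adam17*, *Cxcr3* and the marker genes were named after their values were seen, as were *Zmynd15* and *Art3*, which overlap members. Shared windows of 50 bases and exon overlaps come from GENCODE M21. The only build the notes name is the human one, so the build behind the table is not known and coordinates are given only for the RefSeq sequences. The calculations were tested on simulated data. A further motif that was searched is not reported here.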

Additional observations from a re-analysis of the deposited data

How the results depend on the processing

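The calls rest on 2 libraries a group. Over the 37 named genes and the 10 alternatives that kept all 4 libraries, 322 of 370 values kept their direction and their side of the threshold, 21 lost a call, 22 gained one (1 without a replicate block) and 5 reversed. The 5 reversed values belong to *Ccrl2*, whose log2 fold change was -0.0068 with upper-quartile normalization, -0.0037 with no filter, -0.0049 and -0.0064 with limma on log2(FPKM + 1) and log2(FPKM + 0.1), and -0.0015 with the replicate block. *Cxcl9*, *Cxcl16* and *Ccl2* stayed called in all 10, while *Cxcl12* lost its call in 3. *Cxcl10* was called by edgeR's likelihood-ratio test (adjusted p 0.0420). The cause was not tested.

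With a replicate block, 8 of the 10 ligands and 4841 of all genes were called, and with the GC and length correction and the block 8 and 4070. The 4 ligands added were *Cxcl1* (0.41, adjusted p 0.000227), *Cxcl2* (0.57, adjusted p 0.000594), *Ccl7* and *Cxcl10*. Both fits also called *Ccl3*, *Ccl6*, *Ccl9*, *Cxcl3*, *Cxcl5* and *Ackr2*, and the corrected one *Cxcl14*. Over the genes tested, the deviations of NC replicate 1 and si*Airn* replicate 1 from their group means had a correlation of 0.23. With 2 libraries a group, the replicate 2 libraries must give the same value and add nothing. No label says that a number marks an animal or a day, so what same-numbered libraries share beyond the number is not known. The correction alone gave 1024 calls over all genes, of which 35.5% were higher in si*Airn*, against 49.1% of the 2294 calls without it. The study's threshold, applied to edgeR's quasi-likelihood test without block or correction, called 1358 genes.

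Leaving out 1 library gave 0 to 6 called ligands and 0 to 2410 called genes, and the log2 fold change ranged from -0.46 to 0.028 for *Ccl5*, from -0.17 to 0.53 for *Ccl7*, from -0.049 to 0.60 for *Cx3cl1*, from -1.36 to 0.016 for *Ccl3*, from -0.026 to 0.62 for *Cxcl3*, from -0.018 to 0.82 for *Cxcl5*, from -0.17 to 0.42 for *Cxcl14*, from -0.19 to 0.47 for *Pf4*, from -0.26 to 0.015 for *Cxcr4* and from -0.27 to 0.23 for *Ccrl2*.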

Other observations

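The transcript length implied by the ratio of count to FPKM was computed for each ligand and library, scaled to the median gene of the library. For *Cxcl12* it was 2566 and 2546 bases in NC and 2640 and 2645 bases in si*Airn*, and for *Cxcl16* it was 1902 and 1884 bases in NC and 1851 and 1817 bases in si*Airn*. The groups did not overlap for any of the ligands, so this was not particular to *Cxcl12* and *Cxcl16*. The highest value was 1.04 times the lowest for *Cxcl12* and 1.05 times for *Cxcl16*. For the other 8 ligands the highest of the 4 libraries was 1.002 to 1.022 times the lowest. These lengths were not tested between the groups.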
